A study of Mus musculus and Homo sapiens with 22 samples.

Results

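The genes described here carried at least 1 exonic N6-methyladenosine (m6A) site in mouse embryonic stem cells (mESCs) and at least 1 in mouse heart. They numbered 5197 of the 9841 genes with a site in either tissue list. They were chosen by the site lists themselves, that is, by the measured presence of sites in the mESC list and in the list from 1 µg of heart RNA. A further 1329 genes had sites in the mESC list alone and 3315 in the heart list alone. Within each gene, a site found at the same position and strand in both lists is called shared, and the remainder are called mESC-only or heart-only.

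m6A is set on mRNA co-transcriptionally by a methyltransferase complex whose catalytic subunit is METTL3, with METTL14, WTAP, VIRMA, RBM15 and ZC3H13 among its partners. It falls mostly at adenosines of the DRACH motif (D is A, G or T, R is A or G, H is A, C or T), in long internal exons, around stop codons and in 3′ UTRs. YTH-domain proteins bind the mark, and in many transcripts it shortens the life of the RNA. In mESCs it is best known for limiting the transcripts of pluripotency factors, and in heart it is known as a modulator of cardiomyocyte growth.

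The sites were mapped by miCLIP2, in which an antibody is crosslinked to m6A-containing RNA fragments and cDNAs truncate next to the modified base, and were then called by the machine learning classifier m6Aboost. The mESC list came from wild-type (WT) mESCs in 3 replicates and kept peaks seen in at least 2 of them. The heart lists came from 1 library each at inputs of 1 µg and of 300, 100 and 50 ng of poly(A) RNA from commercially bought murine heart RNA. The animals, their age and their sex are not given in the sources used here, and the sample titles give the 3 smaller amounts in µg where the study's methods give ng. RNA-seq libraries from 3 WT and 3 Mettl3 knockout (KO) mESC samples, KO cells of a line made in earlier work, gave expression levels in mESCs only, so no level of any transcript in heart was measured here. In bulk samples such as these, fewer cells of a type and less RNA per cell cannot be told apart, and a site missing from a list cannot be told apart from a transcript too scarce to yield one.

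The labels were checked against cell type markers. The mESC list held sites in 6 of 8 mESC markers and in 0 of 8 cardiomyocyte markers. The heart list held sites in 5 of 8 cardiomyocyte markers, with 195 sites in Ttn and none in Actc1, Nppa or Myl2, and in 1 of 8 mESC markers, Esrrb. It also held sites in 6 of 6 fibroblast, 6 of 6 endothelial, 3 of 4 smooth muscle and 2 of 5 macrophage and blood markers. The mESC list held sites in 2 of the 6 endothelial markers, Pecam1 with 4 and Vwf with 2, and in none of these other markers. Cardiomyocyte markers summed to 41.2 to 93.1 CPM (counts scaled to library size) in the WT mESC libraries and 178.7 to 219.8 CPM in the KO libraries, mostly from Ttn, and the mESC markers to 4157 to 4434 CPM in WT and 2903 to 3031 CPM in KO libraries. Of the mESC markers, Tdgf1 went from 763 to 1100 CPM in WT to 190 to 272 CPM in KO libraries. Dppa5a went from 773 to 1090 to 284 to 313 CPM, and Utf1 from 33.9 to 52.5 to 17.2 to 17.9 CPM. Pou5f1, Nanog, Sox2 and Zfp42 overlapped between the groups, and Esrrb lay higher in KO. The fibroblast list, which would mark feeder cells, summed to 4.16 to 6.18 CPM in WT and 9.72 to 10.1 CPM in KO libraries. The endothelial markers summed to 185.9 to 246.0 CPM in WT and 173.2 to 256.7 CPM in KO libraries. The smooth muscle markers summed to 24.1 CPM in KO replicate 1 and to 1.03 to 2.47 CPM in the other 5 libraries. The part of these shifts in the KO comparison below was not tested.

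To show what was compared, the highest-scoring site of each kind is printed for 5 of the genes with most one-sided sites in both directions. They show how one transcript could hold all 3 kinds of site. The sequences were read from the GRCm38.p6 assembly, run 5′ to 3′ on the strand of the gene, and carry the 5-base motif around the modified A in capitals. Lifr, the receptor for the cytokine LIF that keeps mESCs undifferentiated, is on the plus strand of chromosome 15, and its mESC-only and shared sites lay in the 3′ UTR (chr15:7193301-7193321 and chr15:7193926-7193946) and its heart-only site in the last coding bases, 16 nt before the last base of the stop codon (chr15:7191143-7191163).
Lifr mESC-only: ggagaaatGGACTcattctgt
Lifr heart-only: ttcttccaGAACAaaccaaat
Lifr shared: aaggagagAAACTattccttc
Rara, the retinoic acid receptor alpha, is on the plus strand of chromosome 11, with the mESC-only site 142 nt before the last base of the stop codon (chr11:98973485-98973505) and the heart-only and shared sites 370 and 178 nt into the 3′ UTR (chr11:98973997-98974017 and chr11:98973805-98973825).
Rara mESC-only: atgctggaGAACTctgagggc
Rara heart-only: ttggatggTGACAgagggtgc
Rara shared: cccaagatGGACTgccctctt
Rbm15, a subunit of the m6A writer complex itself, is on the minus strand of chromosome 3, with both one-sided sites in the coding part of exon 1 of 2 (chr3:107330719-107330739 and chr3:107331685-107331705) and the shared site 27 nt into the 3′ UTR (chr3:107326245-107326265).
Rbm15 mESC-only: cctctcccAAACTctgtttgg
Rbm15 heart-only: gtggtctgGGACCctgggtgc
Rbm15 shared: gctctaatGGACCtttttgaa
Zfp704, a zinc finger protein, is on the minus strand of chromosome 3, with the mESC-only site 5965 nt into the 3′ UTR (chr3:9432812-9432832), the heart-only site 4 nt before the last base of the stop codon (chr3:9438781-9438801) and the shared site between them (chr3:9437926-9437946).
Zfp704 mESC-only: ctggaaaaGGACTgcagatgt
Zfp704 heart-only: cggttcatTGACTgagccatt
Zfp704 shared: catagccaGGACTctgggtta
Klhl11, an adaptor of a cullin ubiquitin ligase, is on the minus strand of chromosome 11, and all 3 sites were in the coding part of exon 2 of 2 (chr11:100463784-100463804, chr11:100464217-100464237 and chr11:100464229-100464249).
Klhl11 mESC-only: accttgatGGACAtgccgtcg
Klhl11 heart-only: tggctttcGGACTtggaaatc
Klhl11 shared: ctcattcgGGACTggctttcg
All 15 windows hold a DRACH motif, and in Klhl11 the heart-only and the shared site lie so close that their windows overlap. For shared sites, highest-scoring does not mean the highest heart score. Those of Lifr, Zfp704 and Rara had heart scores of 2.77, 2.34 and 7.76, below 9.96, the lowest score among the 25456 highest-scoring heart sites.

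Across the 5197 genes there were 35608 distinct sites. Of these 14859 were shared, a share of 41.7% (Wilson 95% interval 41.2 to 42.2%, counting error only, as for all intervals given here), 6726 (18.9%) were mESC-only and 14023 (39.4%) heart-only. Read from each list, 68.8% of the 21585 mESC sites had a counterpart in heart and 51.5% of the 28882 heart sites had a counterpart in mESCs. Heart-only sites made up 67.6% of the one-sided sites (66.9 to 68.2%), but the lists differ in size. The heart list was therefore cut to its 25456 highest-scoring sites, the length of the mESC list. The genes in both lists were then taken anew. The heart-only share of one-sided sites was 41.4% in this setting. The shared share was again 41.7%, but over fewer genes and 25078 sites. Near misses were rare. Only 5.77% of mESC-only and 3.36% of heart-only sites had a site of the other list within 10 nt.

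One-sided sites were spread over most of the genes. In 540 genes every site was shared and in 363 genes none was. Both kinds of one-sided site occurred together in 2257 genes, mESC-only sites alone in 835 and heart-only sites alone in 1565. The median gene had 3 mESC and 4 heart sites, and 417 genes had at least 10 one-sided sites. Just inside the rule stood 1079 genes with a single mESC site and 852 with a single heart site, and just outside it the genes of the mESC list alone had a median of 2 sites and those of the heart list alone a median of 3.

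A gene was called heart-rich when it had at least 2 times as many heart as mESC sites, mESC-rich for the reverse, and balanced otherwise. Heart-rich genes numbered 1553 (29.9%), mESC-rich genes 686 (13.2%) and balanced genes 2958 (56.9%), and these shares are the background for every gene group below. At the edge of the classes 479 heart-rich and 350 mESC-rich genes sat exactly at a ratio of 2, with 532 and 319 genes just outside at ratios of 1.5 to under 2. With the heart list thinned to the length of the mESC list, 15.4% of the genes in both lists were heart-rich, and with the 300 ng heart list 5.35% were.

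**Figure D1:**
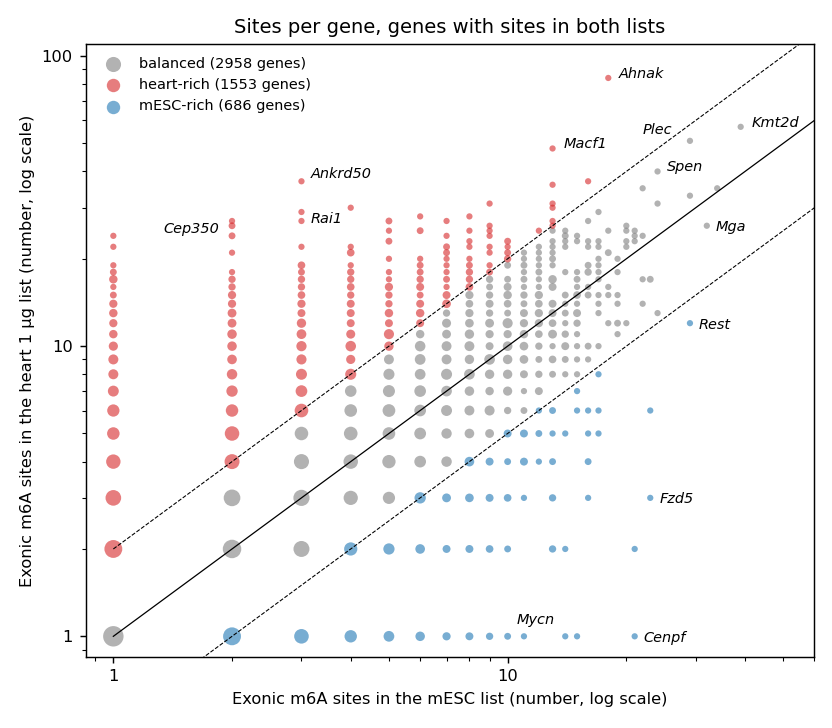
Exonic m6A sites of each gene in the mESC list (x axis, log scale) and in the heart 1 µg list (y axis, log scale) for the 5197 genes with sites in both. Point area grows with the number of genes at that pair of counts, the solid line marks equal numbers and the dashed lines the ratio of 2. Ahnak, with 18 mESC and 84 heart sites, and Fzd5, with 23 and 3, sit far out on either side.

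A Wnt receptor and a kinetochore protein led the mESC-only sites. Fzd5, a Wnt receptor of the Frizzled family (chromosome 1, 64730558 to 64737751, minus strand), came first with 21 mESC-only sites, 1 heart-only site and 2 shared sites. Of the 21, 3 were in the 5′ UTR, 11 in the coding sequence and 7 in the 3′ UTR, so that every region of the transcript had some. Cenpf, a kinetochore protein of dividing cells, had 20 mESC-only, 1 shared and no heart-only sites, all 20 of them coding. Rest, the repressor of neuronal genes, had 18 mESC-only sites beside 11 shared sites and 1 heart-only site, 9 of the 18 coding and 8 in the 3′ UTR. In Rest 9 of the 11 shared sites lay between nucleotides 2796 and 3401 of the transcript, near the end of the coding sequence at 3556, and the mESC-only sites ran from 276 to 6585.

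Zfp516, a zinc finger protein, and BC067074 had 19 mESC-only sites each, against 2 and 0 heart-only sites. The neutral amino acid transporter gene Slc1a4 had 14, and 12 of these were in the 3′ UTR. Mga, a MAX-binding transcription factor, Eml4 and Mtcl1, which bind microtubules, and Hic2, a transcriptional repressor, had 13 each. Of the 10 genes only Mga was not mESC-rich, since it also held 19 shared and 7 heart-only sites. None of the mESC-only sites of these 10 genes was present in the 300 ng heart list, which held 2.08% of all mESC-only sites. The 11th gene in this order also had 13 sites, and the tie was broken by the total number of sites. The order depended on the sites counted. With DRACH sites only, Fzd5 had 13 mESC-only sites, against 20 in Cenpf, 17 in Zfp516 and in Rest, 16 in BC067074 and 14 in Slc1a4. With the thinned heart list Cenpf, BC067074, Slc1a4 and Mtcl1 held no heart site and left the genes in both lists.

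Genes for 2 very large proteins led the heart-only sites. Sites were counted per gene and not scaled to length. The longest coding transcripts of Ahnak and Macf1 had 18100 and 23495 nt, against a median of 3606 nt over all genes in both lists. Those of Fzd5 and Cenpf, which led the mESC-only sites, had 6915 and 11130 nt. Heart-rich genes had a median of 4016 nt and mESC-rich genes 3241 nt. The part of length in these ranks was not tested. Ahnak, a giant scaffold protein of the membrane skeleton (chromosome 19, 8989284 to 9076914, plus strand), had 66 heart-only and 18 shared sites and no mESC-only site. Of the 66, 62 were coding and 4 in the 3′ UTR, and 16 recurred in the 300 ng heart list. Macf1, which crosslinks actin and microtubules, had 38 heart-only, 10 shared and 3 mESC-only sites. In Macf1, 22 of the 38 were coding and 16 lay in exons outside its longest coding transcript.

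Ankrd50, an ankyrin repeat protein of endosomal recycling, had 34 heart-only sites and 3 mESC sites, all shared. The chromatin-bound protein gene Rai1 had 27, the Wnt coactivator gene Bcl9l 26 and Pkd1, which codes for polycystin-1, 26 as well. In these 3 genes all but 1, 2 and 1 of the heart-only sites, in that order, were coding. Plec, the linker of intermediate filaments plectin, had 25 heart-only sites beside 26 shared and 3 mESC-only sites and so counted as balanced. Tacc2, a centrosomal coiled-coil protein, Cep350, another centrosomal protein, and Tug1, a long noncoding RNA, also had 25. With the heart list thinned to the length of the mESC list, the heart-only sites were 60 in Ahnak, 21 in Macf1 and in Ankrd50, 18 in Rai1 and in Bcl9l, 23 in Pkd1, 22 in Plec, 20 in Tacc2, 10 in Tug1 and 5 in Cep350. Recurrence in the 300 ng list differed between these genes, from 12 of 25 heart-only sites in Tacc2 and 8 of 26 in both Pkd1 and Bcl9l to 0 of 38 in Macf1 and 0 of 25 in Cep350. The 11th gene had 24 sites.

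**Figure D2:**
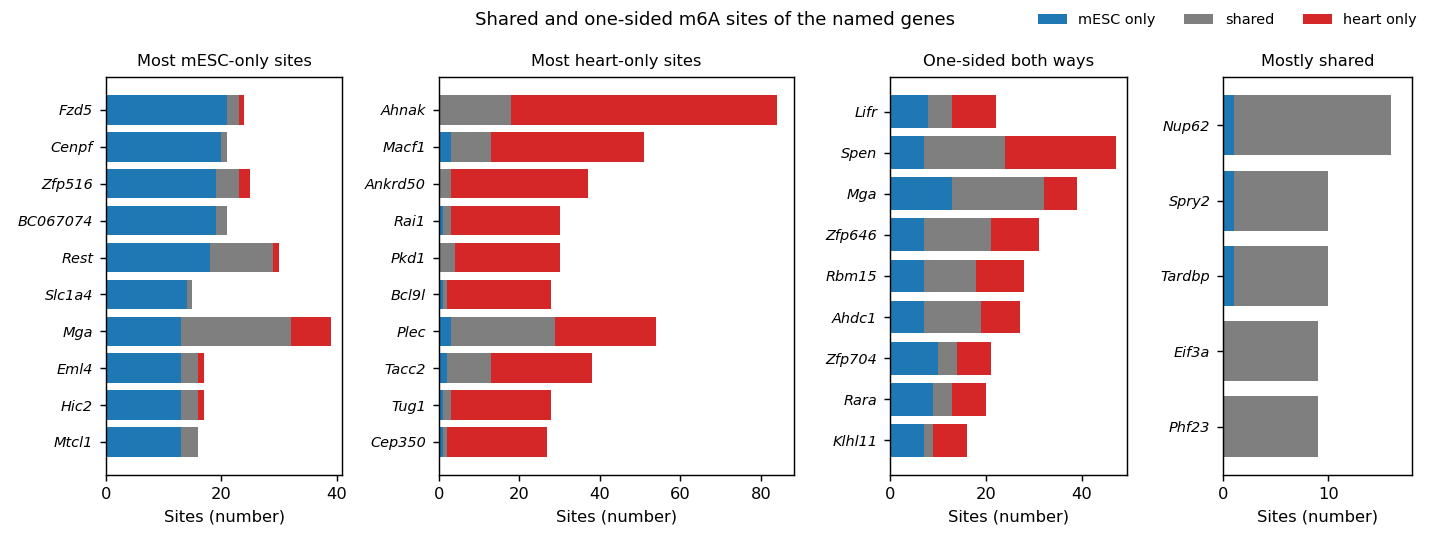
Number of mESC-only (blue), shared (grey) and heart-only (red) sites in the 10 genes with most mESC-only sites, the 10 with most heart-only sites, 9 of the 10 with most sites in both one-sided classes and 5 genes with almost only shared sites. Fzd5 leads the first panel with 21 mESC-only sites, 13 with DRACH sites only, and Ahnak the second with 66 heart-only sites.

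In another set of genes sites went both ways within the same transcript. Lifr led them, with 8 mESC-only, 9 heart-only and 5 shared sites. Of its mESC-only sites 7 were in the 3′ UTR and 1 was coding, whereas 6 of its heart-only sites were coding and 3 in the 3′ UTR. Spen, a transcriptional corepressor that binds Xist RNA, had 7 mESC-only and 23 heart-only sites, and Mga 13 and 7. Zfp646 and Rbm15 had 7 mESC-only and 10 heart-only sites each, and Ahdc1, a DNA-binding AT-hook protein, 7 and 8. In Rbm15 and Ahdc1 all one-sided sites of both kinds were coding.

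Klhl11 had 7 of each kind, 6 of each coding and 1 of each in the 3′ UTR. Zfp704 had 10 mESC-only and 7 heart-only sites, and Rara 9 and 7. With the thinned heart list the mESC-only share of the one-sided sites rose, to 90.9% in Lifr, 84.6% in Rara and 93.3% in Zfp704, so the heart-only sites of these 3 genes were mostly low-scoring ones. Across the 9 genes described, 5 heart-only sites, 4 in Spen and 1 in Ahdc1, recurred in the 300 ng list, as did 3 mESC-only sites, 1 in Spen and 2 in Ahdc1, which the 1 µg heart list lacked.

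At the other end, Nup62, a nucleoporin of the central pore, had 15 shared sites, 1 mESC-only and no heart-only site. Spry2, an inhibitor of receptor tyrosine kinase signalling, and Tardbp, which codes for TDP-43, each had 9 shared and 1 mESC-only site. The translation factor gene Eif3a and Phf23 had 9 sites each, all shared.

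Position along the transcript separated the 2 kinds of site fully in some genes. Of 238 genes with at least 3 mESC-only and at least 3 heart-only sites in the longest coding transcript, 20 had every heart-only site downstream of every mESC-only site, 9 had the reverse order and 209 were interleaved. These genes were picked after their values were seen, so the counts are a description only. Zcchc14, a zinc finger protein, had 3 mESC-only sites in the 5′ UTR and 3 in the coding sequence, while its 13 heart-only sites were all in the 3′ UTR. It also had 18 shared sites, and 2 of its mESC-only sites were called in heart at 300 ng. Spata13, a guanine nucleotide exchange factor, had 4 coding mESC-only sites, the last at nucleotide 1668 of the transcript, and 14 heart-only sites from 1682 on, of which 11 were in the 3′ UTR.

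The kinase gene Aak1 had 3 mESC-only sites and then 16 heart-only sites, all in its long 3′ UTR. In Huwe1, a large ubiquitin ligase on chromosome X, both kinds were coding, at 5674 to 7835 for the 5 mESC-only and 9589 to 10838 for the 7 heart-only sites. Fbxw7, a substrate receptor of a ubiquitin ligase, had its 4 mESC-only sites within the first 776 nt of the transcript and its 7 heart-only sites at 857 to 4230. The clearest reverse order was in Cic, a transcriptional repressor, where 14 heart-only sites lay between 326 and 2578, all coding, and 6 mESC-only sites between 3470 and 7651. Luzp1, Birc6 and Tbx3 followed the order of Cic with 4 against 7, 4 against 5 and 3 against 4 mESC-only and heart-only sites. None of the heart-only sites of Zcchc14, Spata13 and Huwe1 recurred in the 300 ng list, and 2 of the 14 in Cic did. Which transcript isoform was made in heart was not measured.

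**Figure D3:**
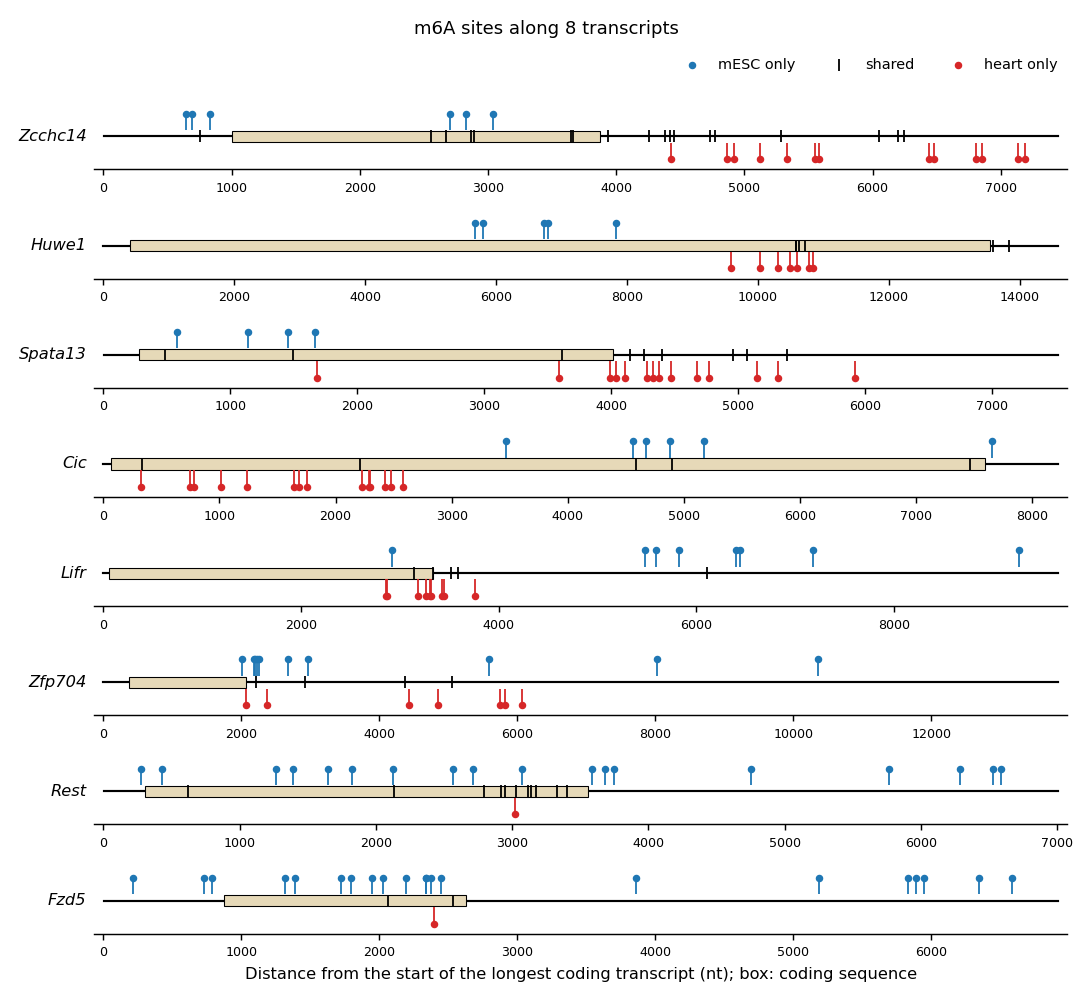
Sites along the longest coding transcript of 8 genes, as distance in nt from its start, with the coding sequence as a box, mESC-only sites above (blue), heart-only sites below (red) and shared sites as black ticks on the line. In the upper 3 genes every heart-only site is downstream of every mESC-only site, and in Cic the order is reversed. Rest and Fzd5 carry mESC-only sites along the whole transcript.

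Whole exons could be one-sided too. In the longest coding transcripts 1060 exons held mESC-only sites and nothing else and 1125 held heart-only sites and nothing else, 29 and 171 of them with at least 3 sites. The heart list is longer, with 46421 sites against 25456, and the exons were not counted with the thinned heart list. The 10 exons with most such sites, not scaled to exon length, were all heart-only. The last exon of Zkscan1, a zinc finger factor, led with 14 sites (exon 6 of 6, chr5:138100590-138107822, 7233 nt), although the gene had 1 shared site elsewhere. Exons with 12 heart-only sites were exon 3 of 28 in Ash1l, a histone H3 lysine 36 methyltransferase, exon 36 of 98 in Macf1, exon 16 of 32 in Prrc2b and the last exons of Clasp1, Jam2 and Raph1.

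Casz1, a zinc finger factor known for its role in heart development, had 11 heart-only sites in its last exon, as did Irs2, an insulin receptor substrate, and Ehbp1 had 11 in exon 14 of 25. Ash1l, Macf1, Prrc2b and Ehbp1 carried them in coding exons, and the last exons of Clasp1, Jam2 and Irs2 only in the 3′ UTR. The 300 ng list held 3 of these sites in Clasp1, 3 in Raph1, 2 in Prrc2b, 2 in Casz1, 1 in each of Jam2, Ehbp1 and Irs2 and 0 in Zkscan1, Ash1l and Macf1. Of exons with mESC-only sites and nothing else, those with most were exon 3 of 10 in BC067074 and exon 12 of 18 in Cenpf, with 8 coding sites each. Exon 17 of 31 in Tns3, a focal adhesion protein, had 6 coding sites, and the last exon of Fbxo5, an inhibitor of the anaphase-promoting complex, had 6.

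The transcript regions of the 3 kinds of site were similar in outline. The 3′ UTR held 48.7% of shared, 46.2% of mESC-only and 47.6% of heart-only sites, and the coding sequence 46.9%, 46.2% and 46.2%. The heart-only minus mESC-only difference in the 3′ UTR share was 1.44 percentage points, with an interval of -0.00843 to 2.89 that holds 0. It turned round with the thinned heart list (-3.52 points) and with the 300 ng list (-3.12 points). Shared sites lay closer to the stop codon, 32.8% of them within 200 nt of its last base against 23.5% of mESC-only and 25.0% of heart-only sites. Within the 3′ UTR the median distance from the stop codon was 269 nt for shared, 417 nt for mESC-only and 420 nt for heart-only sites.

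Exon class differed most. Exons of at most 400 nt other than the last held 13.1% of mESC-only sites (12.3 to 13.9%), 5.20% of heart-only sites (4.84 to 5.59%) and 3.88% of shared sites. Among mESC-only sites with a score of at least 0.7 the share was 9.95%, and it was 9.50% against 4.16% of heart-only sites with the thinned heart list. With the 300 ng list the shares were 7.38% and 6.23%, with overlapping intervals. The last exon held 64.1% of mESC-only, 71.4% of heart-only and 72.6% of shared sites, and the 5′ UTR 3.95%, 1.60% and 1.87%. With the thinned heart list the last exon held 65.9% of mESC-only and 71.9% of heart-only sites and the 5′ UTR 3.15% and 1.83%. Among mESC-only sites the shares were 72.6% and 0.940% at a score of at least 0.7 and 57.7% and 6.20% below it. The classifier takes the transcript region as an input, so a limit on its score can move these shares by itself. Whether this also holds for the thinning of the heart list is unknown, since the scale of the heart score is not given. Exons over 400 nt other than the last held 22.8% to 23.5% of all 3 kinds.

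DRACH motifs surrounded 94.7% of shared, 89.1% of mESC-only and 91.3% of heart-only sites. GGACT made up 24.7% of shared, 18.5% of mESC-only and 18.1% of heart-only sites. GGACA was more frequent among heart-only sites (14.5%, 13.9 to 15.1%) than among mESC-only (11.1%, 10.3 to 11.8%) or shared sites (11.2 to 12.3%). One-sided sites also scored lower. The median m6Aboost score in mESCs was 0.675 for mESC-only and 0.780 for shared sites, and the heart score, whose scale is not given in the sources used here, had a median of 8.17 for heart-only and 20.2 for shared sites.

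The smaller heart libraries, from the same bought RNA, were not used to sort the sites. The 300 ng list held 30.1% of the shared sites (29.3 to 30.8%), 8.59% of the heart-only sites (8.13 to 9.06%) and 2.08% of the mESC-only sites (1.77 to 2.45%). Of the mESC-only sites, then, 140 were called in heart at 300 ng although not at 1 µg. At 100 ng the numbers were 611 shared, 87 heart-only and 5 mESC-only sites, and at 50 ng 124, 24 and 2. The 300 ng list is much shorter, with 8845 sites against 46421, which caps these shares.

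**Figure D4:**
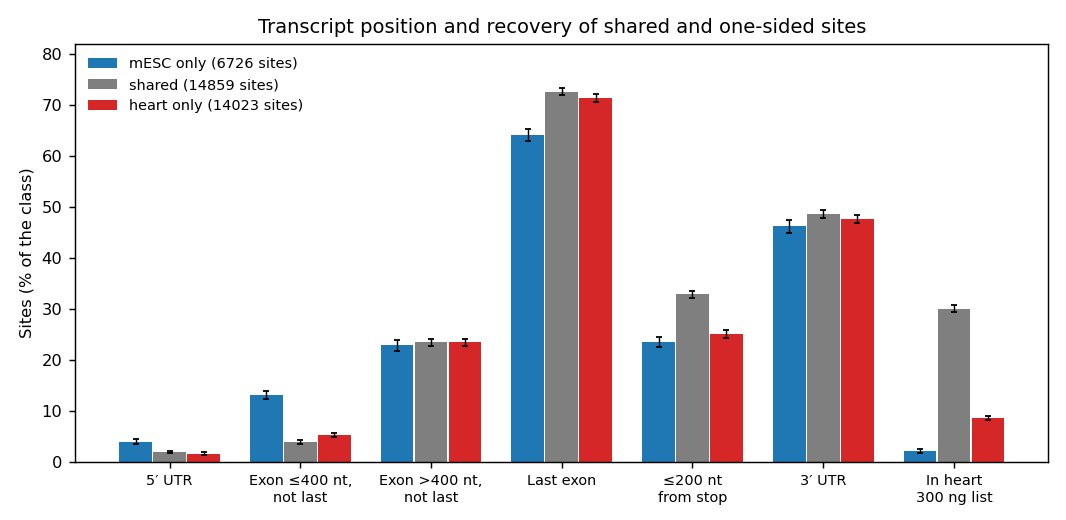
Share of mESC-only, shared and heart-only sites (y axis, percent of the class, bars from 0) in each transcript feature and in the 300 ng heart list. Error bars are Wilson 95% intervals for counting error. Shares by exon are of sites in the longest coding transcript. Short exons before the last stand out for mESC-only sites at 13.1%, and 30.1% of shared sites recur at 300 ng.

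Expression in mESCs moved with the site classes. Heart-rich genes had a median WT level of 5.31 CPM per kb of exon, balanced genes 11.6 and mESC-rich genes 15.7. In the quartile of genes with the lowest WT level, 10.7% of sites were mESC-only and 54.6% heart-only. In the highest quartile the shares were 26.5% and 27.5%. Heart sites per mESC site fell over the quartiles from 1.97 to 1.53, 1.23 and 1.02. The part of expression in the site classes was not tested.

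Of the 10 gene lists, the giant cytoskeletal linkers were the most heart-rich, with 15 of the 27 genes present in both lists (55.6%, background 29.9%) and only 1 mESC-rich gene, Sptan1. They held 367 heart-only, 163 shared and 54 mESC-only sites, or 2.44 heart sites per mESC site against 1.34 over all genes. The part of transcript length was not tested. Dst, a relative of Macf1, had 24 heart-only, 13 shared and 3 mESC-only sites, 21 of the 24 coding. Among Notch, Wnt, BMP and Hippo signalling genes 15 of 31 were heart-rich (48.4%) and 5 mESC-rich. Single genes went either way. Notch2 had 18 heart-only and no mESC-only site, 14 of the 18 in the 3′ UTR, Apc, the Wnt pathway scaffold, had 16 against 2, and Fzd5 and the atypical cadherin Fat1 had more mESC-only sites, with 21 against 1 and 11 against 5.

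The chromatin writers and remodellers, with 47 of 60 genes in both lists, had 11 heart-rich (23.4%) and 5 mESC-rich genes (10.6%), both shares under the background. Within them, most heart-only sites among the named genes were in Kmt2d and Crebbp with 22 each, Ash1l with 21 and Kmt2c with 20, all genes of histone methyltransferases or, for Crebbp, an acetyltransferase. Kmt2d also had 35 shared sites and Kmt2c just 1. Of the 34 RNA decay and RNA-binding regulators, 7 were heart-rich (20.6%) and 8 mESC-rich (23.5%, background 13.2%). Tnrc6b, a GW182 partner of Argonaute in miRNA silencing, had 17 heart-only and no mESC-only site, and Son and Srrm2, proteins of nuclear speckles, had 14 against 1 and 10 against 4.

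Of the m6A machinery, 15 of 24 genes carried sites in both tissues, 3 of them heart-rich and 1 mESC-rich. Virma, the scaffold of the writer complex, had 10 heart-only, 8 shared and 1 mESC-only sites, and Ythdc1, the nuclear m6A reader, 8 heart-only sites, all in the 3′ UTR, beside 2 shared and 1 mESC-only. Ythdf3, a cytoplasmic reader, had 7 heart-only, 8 shared and 3 mESC-only sites. Only 7 of 34 pluripotency regulators were in both lists, none of them heart-rich. Mycn had 10 mESC-only sites, 1 shared and none heart-only, Esrrb 9 mESC-only and 6 shared, Rif1 6 mESC-only and 4 heart-only, and Klf4 5 and 3.

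Cardiac genes seldom met the rule, since mESCs carried few sites in them. Of 46 calcium handling and channel genes 11 were in both lists and 29 in the heart list alone, and of 45 sarcomere and Z-disc genes 2 and 30. Among the 11, 5 were heart-rich, including Gja1, the gap junction protein connexin 43, with 11 heart-only and 5 shared sites, Asph with 9 heart-only, of which 7 were outside the longest coding transcript, and the potassium channel gene Kcnh2 with 6. Camk2g, a calmodulin-dependent kinase, had 6 heart-only sites and 1 mESC-only. The pair from the sarcomere and Z-disc list was Actn4, mESC-rich with 8 mESC-only sites, and Palld, heart-rich with 5 heart-only sites.

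Of 36 cardiac transcription factors 10 were in both lists and 3 were heart-rich. Foxo3 had 12 heart-only and 3 mESC-only sites, Ppargc1b 10 and 1, Foxo1 8 and 0 and Nfatc3 5 and 2. Of 42 matrix genes 13 were in both lists. Here the directions differed from gene to gene, with 8 mESC-only and no heart-only site in fibronectin, Fn1, against 8 heart-only and no mESC-only site in the laminin chain Lamc1. The proteoglycan gene Vcan had 7 heart-only and 3 mESC-only sites, and the receptor gene Lrp1 7 and 1.

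Loss of METTL3 in mESCs was then read for the same genes from RNA-seq counts, which did not enter the choice of genes. This measure is not independent of the site classes, however. The mESC sites were called in WT cells, and the classes moved with the WT level, which also enters the fold change. In addition, m6Aboost was trained on miCLIP2 data of WT against Mettl3 KO mESCs. The part of either in the values below was not tested. Mettl3 itself had 26.4, 26.6 and 28.9 CPM in the WT libraries and 18.4, 22.6 and 16.9 CPM in the KO libraries, lower in every KO library, with a log2 fold change of -0.50 ± 0.14 (SE) and an adjusted p of 0.0134 by edgeR's quasi-likelihood test. Where in the gene the deletion lies is not given in the sources used here. The threshold was an adjusted p of at most 0.01 over 15731 genes, at which 17.1% were higher and 12.6% lower in KO. Of the 5193 both-list genes tested, 1014 (19.5%) were higher and 601 (11.6%) lower.

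The site classes differed in direction. Among the 684 mESC-rich genes tested, 67 (9.80%) rose and 142 (20.8%) fell in KO, while among the 1552 heart-rich genes 400 (25.8%) rose and 134 (8.63%) fell. Balanced genes had 547 (18.5%) up and 325 down. The median log2 fold change was -0.16 for mESC-rich, 0.04 for balanced and 0.16 for heart-rich genes, against -0.02 over all genes tested. In single libraries the median of mESC-rich genes, as log2 difference from the WT mean, was -0.01, -0.06 and 0.07 in WT and -0.13, -0.16 and -0.14 in KO. For heart-rich genes it was -0.02, -0.02 and 0.05 in WT and 0.16, 0.18 and 0.13 in KO. For neither class did the WT and KO libraries overlap, whereas those of balanced genes did. Each WT library is part of the WT mean and no KO library is, so WT and KO libraries were not measured alike.

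Expression level moved with the classes here too, and the classes were compared within quartiles of the mean level over the 6 libraries, an alternative chosen after seeing the data. From the lowest to the highest quartile the medians of mESC-rich genes were -0.03, -0.03, -0.11 and -0.26, and those of heart-rich genes 0.24, 0.22, 0.10 and 0.00. The mESC-rich median was the lower one in all 4 quartiles, with differences of -0.278 to -0.215. With the replicate number as a block, mESC-rich genes had 114 up and 225 down, balanced genes 770 and 538 and heart-rich genes 536 and 206. Without WT replicate 1, KO replicate 1 or KO replicate 3 the both-list genes called numbered 1027, 906 and 1069 instead of 1615. With library size alone as scaling the median of all genes was 0.08 instead of -0.02 and 77.5% instead of 62.8% of the called both-list genes were higher, and the mESC-rich median was -0.05 and the heart-rich median 0.26. The mESC-rich calls were then 88 higher and 90 lower. With TMM scaling but without KO replicate 1 they were 43 and 64.

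**Figure D5:**
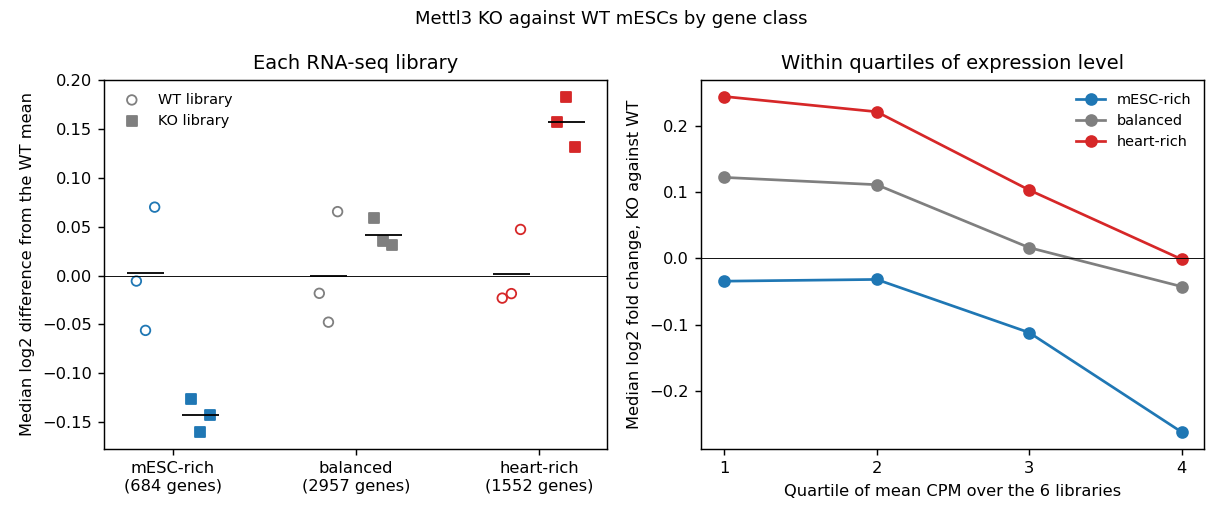
Left, median log2 difference from the WT mean for mESC-rich, balanced and heart-rich genes in each of 3 WT (open circles) and 3 Mettl3 KO (filled squares) RNA-seq libraries, with bars for the group means. Right, median log2 fold change of each class within quartiles of mean CPM over the 6 libraries. The mESC-rich genes lie lowest and the heart-rich genes highest in all 4 quartiles.

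Single genes did not all follow their class. Hic2, mESC-rich, gave counts of 2580, 2837 and 2593 in the WT libraries and of 5760, 7032 and 5346 in the KO libraries, a log2 fold change of 0.91 ± 0.11 (adjusted p = 0.000167, edgeR). Mtcl1 rose by 0.65 (adjusted p = 0.00304, edgeR). Cenpf, with 319 ± 3.32 CPM (SD, n = 3) in WT and 239 ± 15.0 CPM in KO, fell by 0.42 on the log2 scale (adjusted p = 0.00728, edgeR), a call that was lost with library size alone as scaling, without a filter on low counts and without each of WT replicates 1 and 2 and KO replicates 1, 2 and 3. The call of Mtcl1 was lost without WT replicate 1. Fzd5 did not pass, at 97.5 ± 16.3 CPM (SD, n = 3) in WT and 91.0 ± 7.15 CPM in KO (adjusted p = 0.557, edgeR). Zfp516, BC067074, Rest and Eml4 missed the threshold in the unblocked fit with log2 fold changes of -0.40, -0.34, 0.46 and 0.34, and passed it with the replicate block (adjusted p = 0.0022, 0.00856, 0.00193 and 0.00548, edgeR).

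Among genes with most heart-only sites, Ankrd50 gave counts of 701, 754 and 714 in the WT libraries and of 1868, 2352 and 2107 in the KO libraries, a log2 fold change of 1.28 ± 0.11 (adjusted p = 2.04e-05, edgeR). The KO counts all lay above 2 times the WT counts. Rai1 and Bcl9l rose by 1.15 and 1.10 (adjusted p = 0.000347 and 0.00304, edgeR), Bcl9l not without WT replicate 1, KO replicate 1 or KO replicate 2. Tug1 fell, from counts of 1485, 1642 and 1911 in the WT libraries to 542, 732 and 637, by 1.67 on the log2 scale (adjusted p = 2.43e-05, edgeR). Ahnak, at 0.61 ± 0.18, had an adjusted p of 0.0171 and of 0.00168 with the replicate block (edgeR). Macf1, Plec, Tacc2, Pkd1 and Cep350 had log2 fold changes of -0.04, -0.06, 0.01, 0.15 and 0.25 and did not pass either way.

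Of the genes with sites in both directions, Ahdc1, Rbm15, Zfp646 and Mga rose, by 1.09, 0.94, 0.83 and 0.53 on the log2 scale (adjusted p = 8.37e-05, 0.000687, 0.000269 and 0.00346, edgeR). Rbm15 went from counts of 2654, 2494 and 1772 in the WT libraries to 5320, 5400 and 5108 in the KO libraries. The call of Mga was lost without WT replicate 1, KO replicate 1 or KO replicate 2. Lifr, Rara, Klhl11, Spen and Zfp704 did not pass, and Spen and Zfp704 did with the replicate block (adjusted p = 0.00178 and 0.00489, edgeR) and without a filter on low counts. Of the mostly shared genes Nup62 and Phf23 rose by 1.14 and 0.85 (adjusted p = 3.95e-05 and 0.00075, edgeR), and Spry2 fell by 1.55, from 1098, 1621 and 1524 counts to 555, 681 and 500 (adjusted p = 3.9e-05, edgeR). Mostly shared genes thus included a rise and a fall of over 2 times. Eif3a did not pass, and Tardbp, at -0.43, passed only with the replicate block (adjusted p = 0.00155, edgeR).

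By list, the m6A machinery had 9 of 15 tested genes higher in KO and 1 lower, with a median log2 fold change of 0.60 against -0.02 over all genes tested. Virma rose by 0.90 ± 0.11 and Ythdc1 by 0.84 ± 0.14 (adjusted p = 0.000141 and 0.000862, edgeR). RNA decay and RNA-binding regulators had 8 of 34 lower, with a median of -0.16. Chromatin genes had 10 of 47 higher and 4 lower, against 19.5% and 11.6% of all both-list genes, and the shares of higher genes in this list, the giant linkers and the signalling list lay near that background. Among the chromatin genes was Crebbp, which rose by 1.05 ± 0.13 (adjusted p = 0.000159, edgeR). The giant linkers had 5 of 27 higher and 2 lower, among them Dst, which rose by 0.83 (adjusted p = 0.00183, edgeR). Notch2 went from counts of 1062, 1101 and 948 in the WT libraries to 3958, 5026 and 3543 in the KO libraries, a log2 fold change of 1.74 ± 0.13 (adjusted p = 1.08e-05, edgeR), in a signalling list with 5 of 31 higher and 2 lower.

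The remaining lists had few genes. Calcium handling genes had 1 of 11 higher, Gja1 at 0.70 (adjusted p = 0.00688, edgeR), and 3 lower, among them Kcnh2, which fell by 0.67 (adjusted p = 0.0041, edgeR). Cardiac transcription factors had 1 of 10 higher, Foxo1 at 0.96 (adjusted p = 9.63e-05, edgeR), and matrix genes 1 of 13 higher and 2 lower, with Lrp1 down by 0.91 (adjusted p = 0.00337, edgeR). The pluripotency list had 2 of 7 higher, with Mycn at 0.66 (adjusted p = 0.000848, edgeR). Actn4 and Palld, from the sarcomere and Z-disc list, had log2 fold changes of -0.09 and 0.30 and did not pass.

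These list counts depended on the fit. The replicate block raised the calls over all both-list genes, from 19.5% to 27.3% higher and from 11.6% to 18.7% lower. With it the counts were 6 higher and 5 lower in the signalling list, 4 and 10 among RNA decay regulators, 8 and 3 among giant linkers, 2 and 5 among calcium handling genes and 2 and 5 among matrix genes, while the m6A machinery had 10 and 2 and the chromatin list 13 and 4. Cardiac transcription factors and pluripotency regulators gained 1 higher gene each. Genes that did not pass unblocked and passed with the block were Son, Asph, Ppargc1b, Vcan, Fn1 and Esrrb (adjusted p = 0.00808, 0.00372, 0.00426, 0.00532, 0.000932 and 0.00191, edgeR). Asph and Esrrb also passed in DESeq2 and under the stricter count filter (10 or more in each of the 6 libraries), and Vcan and Fn1 without a filter on low counts and without WT replicate 3. The calls of Gja1, Kcnh2 and Lrp1 were each lost without WT replicate 1, KO replicate 1 or KO replicate 3, those of Gja1 and Kcnh2 also without WT replicate 2, and those of Kcnh2 and Lrp1 with library size alone as scaling. With each library left out in turn, the m6A machinery had 8 or 9 genes higher, the signalling list 2 to 5 and the giant linkers 2 to 5, and the RNA decay list 5 to 9 lower. The calcium handling list had no call without WT replicate 1, KO replicate 1 or KO replicate 3 (edgeR), against 1 higher and 3 lower with all libraries. The matrix list had no call without KO replicate 1.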

How the data were processed

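miCLIP2 site lists and RNA-seq counts deposited by the authors were analysed. Per the study's methods the authors trimmed miCLIP2 reads, mapped them with STAR to GRCm38.p6 (GENCODE M23), removed duplicates with UMI-tools and reads with C-to-T transitions, called peaks with PureCLIP and classified peaks at A with m6Aboost. The submitters' processing notes name STAR 2.6.1b and 2.7.3a, UMI-tools 1.0.0, HTSeq 0.12.4, SAMtools 1.9 and bedtools 2.27.1. The deposited value per site is a score, from 0.5 to 1 in the mESC list and on an unstated scale in the heart lists, where it only ranked sites. The lists hold no read counts, so the depth behind a site is unknown, and a list is 1 value per position with no replicates, so site classes were not tested. The deposited RNA-seq files hold raw counts per gene by htseq-count on the reverse strand, 22746733 to 27254245 in genes per library. Another 36.7 to 42.7% were not assigned to a gene, among them 17.6 to 22.6% on no gene and 13.9 to 15.2% that did not align uniquely.

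Sites in merged exons of exactly 1 gene on their strand were kept (GENCODE M21, the release at hand), 24880 of 25456 mESC and 44054 of 46421 heart sites. Per-library medians used log2(CPM + 0.5). Regions refer to the longest coding transcript, without a filter on transcript type or completeness. In Ankrd50 and Tacc2, for example, its coding sequence began at the first base. Some sites may therefore be placed in another region than in a complete transcript. DRACH and windows of 21 nt were read from the RefSeq GRCm38.p6 assembly. KO and WT were compared with edgeR 4.0.16 (quasi-likelihood, TMM, filterByExpr, Benjamini-Hochberg, adjusted p at most 0.01) over 15731 genes. The study calls the miCLIP2 replicates of these cells biological and the RNA-seq matched to them, and whether the libraries came from separate cultures is not given in the sources used here. If they did not, p-values measure only technical spread. Same-numbered WT and KO libraries deviated together (correlations of 0.122, 0.464 and 0.303), and differently numbered ones had correlations of -0.342 to 0.11. The 0.11 was between WT replicate 3 and KO replicate 1, so the pairing of replicate 1 is not settled by these values. The main fit did not use the replicate numbers. A fit with the replicate block, in which the numbers pair the samples, was run as the alternative. The R script was tested on simulated data. Members, gene lists and rules were chosen with earlier results of these data known. Named were the 10 genes with most sites of each one-sided class, the 10 with the highest smaller one-sided count, 5 with most shared and at most 1 one-sided site, 10 exons of a single list and up to 4 genes per list with most one-sided sites. The human sites were not used here. One gene of this rule is not reported here.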

Additional observations from a re-analysis of the deposited data

How the results depend on the processing

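Genes in both lists were taken anew whenever a list changed. The shared share of 41.7% stayed within its interval when sites were paired, each at most once, within 2 or 10 nt (41.7 and 42.1%), with the thinned heart list (41.7%) and with sites in exons of several genes (41.8%). It was 36.3% with mESC sites of score 0.7 or more, 43.0% for DRACH sites, 32.5% with the 300 ng list, 42.4% for genes of at least 10 CPM in WT and 49.9% for genes with at least 5 sites in each list. The heart-only share of one-sided sites, in the same order, was 84.6%, 68.1%, 14.9%, 66.2% and 65.5%, and 41.4% with the thinned list. The 3′ UTR difference was reversed at -3.52 points with the thinned list, -14.7 with mESC scores of 0.7 or more, which also turns shared sites of lower mESC score into heart-only ones and uses a score that takes the transcript region as an input, and -3.12 with the 300 ng list, and was 3.13 points for genes with 5 sites. Heart-rich genes were 15.4% with the thinned list, 5.35% at 300 ng, 28.1% at 10 CPM and 15.0% at a ratio of 3. Of the recomputed site shares of the genes that the naming rule gave, 15 moved beyond their interval and 68 did not.

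Genes changed in KO numbered 1615, and 2470 at an adjusted p of 0.05. The fit with the replicate block called 2389 and changed no call of a named gene beyond those given above and those of Neat1 and Firre, which passed with it (adjusted p = 3.13e-06 and 0.00196, edgeR), and leaving out each replicate gave 906 to 1889. The mESC-rich minus heart-rich median of -0.316 was -0.31 with the replicate block, -0.334 to -0.287 without each replicate, -0.376 at a ratio of 3, and -0.278, -0.253, -0.215 and -0.261 within quartiles of level, an alternative chosen after seeing the data. No named log2 fold change that was called, in the unblocked fit or an alternative, turned its direction. Causes of these shifts were not tested. With 1 heart library per amount, no spread between heart samples could be given.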

Other observations

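Long noncoding and pseudogene transcripts formed a small group of their own, 36 genes without a coding transcript and with 64 shared, 25 mESC-only and 108 heart-only sites. Tug1 led them. Neat1, the scaffold RNA of paraspeckles, had 10 heart-only, 7 shared and 3 mESC-only sites, and Malat1, an abundant nuclear RNA, 2 heart-only, 4 shared and 5 mESC-only sites. Firre, a nuclear RNA of the X chromosome, had 4 heart-only and 3 mESC-only sites and none shared. In KO libraries Gm42047, with 3 mESC-only and 6 shared sites, went from 5619, 7669 and 6021 counts to 1178, 1823 and 1216, which fell by 2.46 on the log2 scale (adjusted p = 2.35e-06, edgeR).

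Sites in the 5′ UTR were few. Of 266 mESC-only sites in 5′ UTRs 78.9% were in the first exon of the transcript, against 58.9% of 224 heart-only and 60.4% of 278 shared sites. Rnf168, a ubiquitin ligase of the DNA damage response, had 4 mESC-only sites there, and Brd2, Ajuba, Igsf3, Tlnrd1, Fzd5 and Zcchc14 had 3 each, all without a heart-only site there. Pik3r1, the regulatory subunit of PI3 kinase, and Zrsr1 had 5 heart-only sites in the 5′ UTR, and Jun, Limd1 and Mapk1ip1 had 4, all without mESC-only sites in the whole gene. Abl1, a tyrosine kinase, had 4 heart-only sites and 1 mESC-only site in the 5′ UTR. These genes were picked after their values were seen.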
